A study of Rattus norvegicus with 12 samples.

Results

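In rats with a crushed sciatic nerve, 7 Ensembl gene IDs had much higher counts in the libraries treated with exosomes than in the controls, and they were followed over all 12 libraries. The IDs are ENSRNOG00000029079, ENSRNOG00000008759, ENSRNOG00000068374, ENSRNOG00000065414, ENSRNOG00000025909, ENSRNOG00000000459 and ENSRNOG00000018951. They were chosen by their values in EXO and CTRL, as IDs over 4 times higher in the 3 EXO libraries than in the 3 CTRL libraries with no overlap between the groups. They are 7 of 30562 IDs in the count table, of which 14298 had a count in any library. Their levels in EXO and CTRL are therefore given as a description, with no test. No ID was paired with a gene name here, so nothing is said of what these genes do.

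Exosomes are small membrane vesicles that cells release and that carry proteins and RNA to other cells. After a crush, the axons beyond the injury break down, Schwann cells turn to a repair state, and macrophages and other immune cells enter the nerve to clear debris. Low intensity pulsed ultrasound delivers short bursts of acoustic energy to tissue at a level too low to heat it strongly.

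RNA sequencing was done on 12 libraries, 3 from each of 4 groups, and every group had a crushed sciatic nerve. The rats had the genotype SD (Sprague-Dawley) in the labels, and the series text describes the study's animals as males of 5 weeks. CTRL received the crush and, by its labels, nothing else. The study's methods name a vehicle, PBS, that the sample labels do not. EXO received 10 μL of exosomes from induced pluripotent stem cells at a labelled 103, 104 and 105 μg/mL for replicates 2, 3 and 5. The series text gives 100 μg/mL for this group, so whether these doses differed is not known. LIPUS received ultrasound at 250 mW/cm² and 1 MHz with a duty cycle of 20%, given on one side for 5 minutes a day, 5 days a week, over 4 weeks. EXO+LIPUS received both, with the exosomes at 100 μg/mL. By the methods, nerves of CTRL and EXO were taken on day 7 after the crush. The methods do not describe the ultrasound groups, whose labelled course is longer, and the day on which they were sampled is not known here. LIPUS and CTRL, and EXO+LIPUS and EXO, may therefore differ in time after injury, which cannot be told apart from ultrasound. The labels name whole brain as the tissue and the extraction protocol names sciatic nerve, and without gene names neither could be checked against marker genes. All libraries carry the same batch label.

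Depth was low and similar between libraries. Total counts ranged from 1251715 in LIPUS replicate 2 to 1854545 in CTRL replicate 9, and between 7470 and 8704 genes had a count. Levels are given as CPM, the count of a gene relative to the library's total after scaling by TMM factors, and 3 counts, the floor used here, corresponded to 1.91 to 2.58 CPM. CTRL replicate 9 stood apart. A single gene, ENSRNOG00000020644, held 32.5% of its counts, and the same gene held 9.28% in EXO+LIPUS replicate 2. In the other 10 libraries the most abundant gene, ENSRNOG00000004091, held 2.80 to 4.38%. The 7 IDs together took 0.0198 to 0.0254% of the counts in CTRL and 0.0282 to 0.0423% in LIPUS. These shares are of raw totals, and in CPM the 2 groups overlapped, with a sum of 316 CPM in CTRL replicate 9 against 269.7 and 284.8 CPM in LIPUS replicates 6 and 7. They took 0.414, 0.364 and 0.140% in EXO replicates 2, 3 and 5, and 0.118, 0.124 and 0.350% in EXO+LIPUS replicates 1, 2 and 3.

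ENSRNOG00000008759 had the highest mean of the 7 in each group by CPM, a scale that does not correct for gene length, though not the highest value in EXO replicate 3. Its level was 139, 129 and 214 CPM in CTRL replicates 1, 4 and 9 and 1726, 872 and 759 CPM in EXO replicates 2, 3 and 5. It was 255, 145 and 117 CPM in LIPUS replicates 2, 6 and 7 and 625, 794 and 1857 CPM in EXO+LIPUS replicates 1, 2 and 3. All 6 libraries with exosomes lay above all 6 without. ENSRNOG00000068374 had the same layout at a lower level, with 18.4, 40.8 and 57.7 CPM in CTRL and 546, 296 and 217 CPM in EXO. With ultrasound it had 62.3, 32.5 and 54.9 CPM in LIPUS and 206, 192 and 563 CPM in EXO+LIPUS, in the same order of replicates. For both IDs the mean of EXO+LIPUS was close to that of EXO: 1092 ± 668 against 1119 ± 529 CPM, and 321 ± 210 against 353 ± 172 CPM (SD, n = 3). This depended on single libraries. The log2 fold changes for EXO+LIPUS over EXO were -0.03 and -0.14. They were -0.65 and -0.82 without EXO+LIPUS replicate 3, and 0.42 and 0.32 without EXO replicate 2.

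ENSRNOG00000029079 was near the low end in CTRL and among the highest in EXO. It had 12.0, 12.2 and 8.61 CPM in CTRL, and 795, 1039.5 and 162 CPM in EXO. In LIPUS it had 26.2, 21.7 and 34.7 CPM, and in EXO+LIPUS 92.3, 156 and 475 CPM. Its 4 groups did not overlap except for EXO and EXO+LIPUS. ENSRNOG00000065414 had 16.2, 10.0 and 11.2 CPM in CTRL, 215, 324 and 42.1 CPM in EXO, 17.7, 26.1 and 12.5 CPM in LIPUS, and 50.7, 60.6 and 169 CPM in EXO+LIPUS. Here CTRL and LIPUS overlapped, and both lay below every library with exosomes.

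ENSRNOG00000018951 spread most within the exosome groups. It had 37.4, 35.8 and 12.9 CPM in CTRL and 657, 878 and 65.4 CPM in EXO. With ultrasound it had 36.2, 35.1 and 54.9 CPM in LIPUS and 69.8, 51.9 and 304 CPM in EXO+LIPUS. The value of EXO+LIPUS replicate 2 was under that of LIPUS replicate 7, so these groups overlapped.

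The other IDs were low. ENSRNOG00000025909 had 7.06, 5.72 and 9.47 CPM in CTRL, 45.7, 31.9 and 24.0 CPM in EXO, 9.23, 5.74 and 6.95 CPM in LIPUS, and 19.7, 9.99 and 25.8 CPM in EXO+LIPUS. Its value in EXO+LIPUS replicate 2 rested on 15 counts (95% Poisson interval 5.59 to 16.5 CPM, counting error only), and that in LIPUS replicate 2 on 12 counts (4.77 to 16.1 CPM). These 2 libraries are not told apart at this depth. ENSRNOG00000000459 had 8, 4 and 2 counts in CTRL, 33, 65 and 21 in EXO, 1, 5 and 5 in LIPUS, and 39, 18 and 38 in EXO+LIPUS. In CPM its group means were 3.41 ± 2.02, 28.8 ± 15.8, 2.48 ± 1.49 and 22.0 ± 8.67 (SD, n = 3), in the same order, so the groups without exosomes were near the floor. Across the 7 IDs, all 6 libraries with exosomes lay above all 6 others in 6, the exception being ENSRNOG00000018951, against 1.77% of 4640 genes. The choice of the IDs fixed the EXO and CTRL side of this count. ENSRNOG00000025909 and ENSRNOG00000000459 were too low without exosomes to pass the filter there, so their separation is no support, and for the first it was 9.99 against 9.47 CPM, 15 against 11 counts, within counting error.

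**Figure D1:**
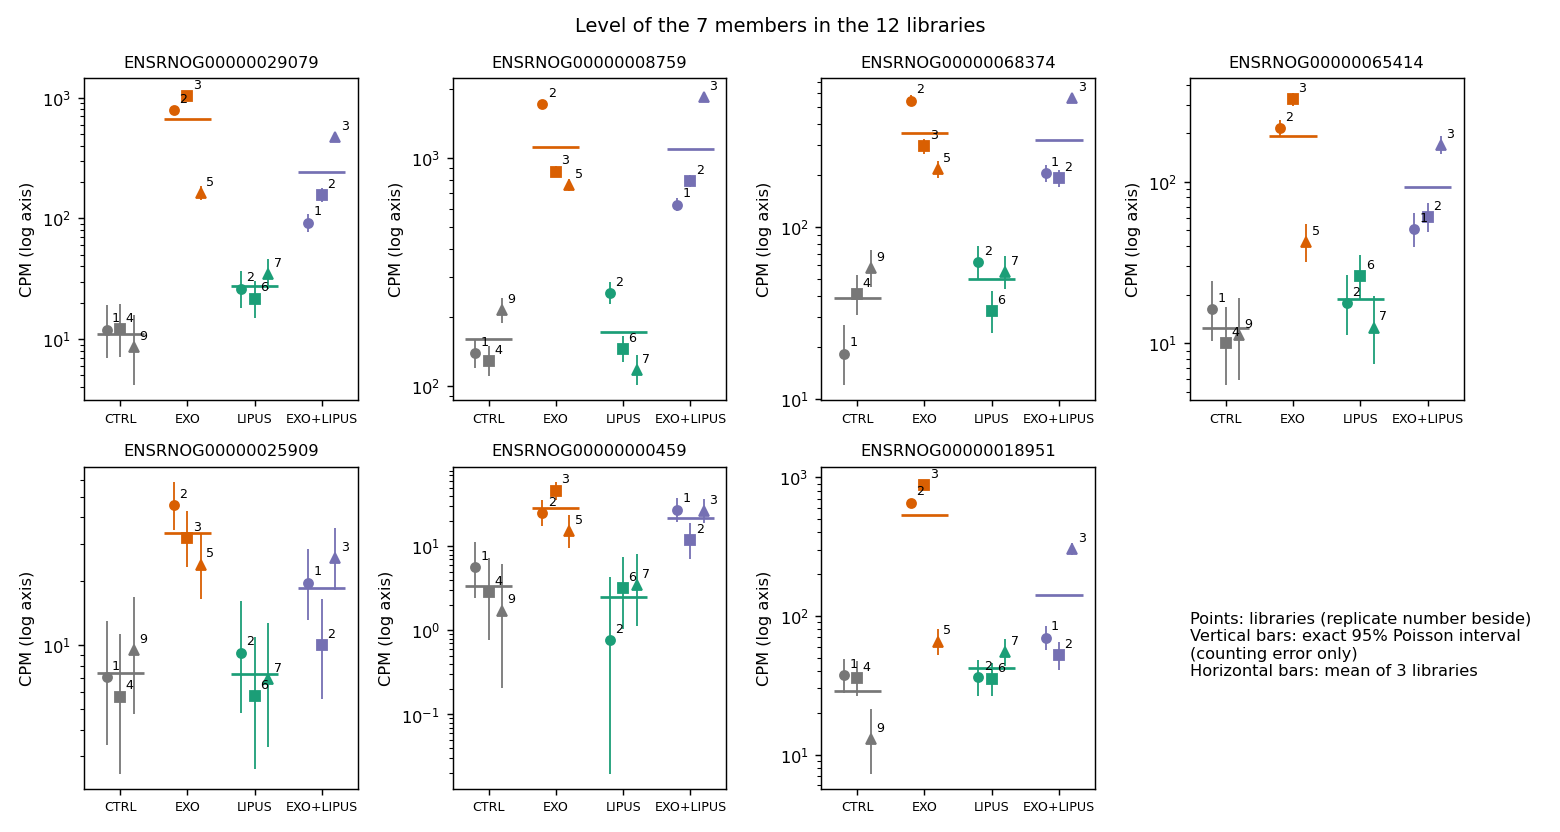
Level of each ID in CPM (log axis) in each library of the 4 groups, with the replicate number beside each point, exact 95% Poisson intervals as vertical bars and the mean of 3 libraries as a horizontal bar. Points of EXO and EXO+LIPUS lie above those of CTRL and LIPUS in 6 of the 7 panels.

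Without ultrasound, the ratio of the mean level in EXO to that in CTRL was 60.9 for ENSRNOG00000029079, 18.6 for ENSRNOG00000018951 and 15.5 for ENSRNOG00000065414. The ratio was 9.06 for ENSRNOG00000068374, and the members nearest above the threshold were ENSRNOG00000000459 at 8.45, ENSRNOG00000008759 at 6.96 and ENSRNOG00000025909 at 4.56. The rule was met by 11 of 4278 genes in the fit (0.257%), the 7 IDs and 4 others with ratios of 5.30, 5.00, 4.54 and 4.06. The 3 genes just outside the threshold without overlap had ratios of 3.87, 3.26 and 3.22. The median log2 fold change of the 7 was 3.19, against 0.00 over all genes in the fit. Without CTRL replicate 9 it was 3.57. These values chose the IDs, and nothing is read from their size.

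With ultrasound, the same exosome difference was measured between EXO+LIPUS and LIPUS, whose libraries the stated rule did not use. The rule was also met by 4 other genes, and why only these 7 were taken is not stated. The 7 were chosen with earlier results of these data known, so a choice free of these libraries is not shown. In this bulk tissue a change in the number of cells of a type and a change in RNA per cell cannot be told apart. By the quasi-likelihood test of edgeR, with p adjusted by Benjamini-Hochberg over 4374 genes, ENSRNOG00000029079 was higher in EXO+LIPUS by a log2 fold change of 3.13 (SE 0.52, adjusted p = 0.00602). ENSRNOG00000000459 was higher by 3.06 (SE 0.56, adjusted p = 0.00957), ENSRNOG00000068374 by 2.69 (SE 0.40, adjusted p = 0.00326) and ENSRNOG00000008759 by 2.66 (SE 0.39, adjusted p = 0.00317). The difference was 2.30 for ENSRNOG00000065414 (SE 0.45, adjusted p = 0.0149). ENSRNOG00000018951 (log2 fold change 1.75, SE 0.55, adjusted p = 0.0957) and ENSRNOG00000025909 (1.33, SE 0.45, adjusted p = 0.121) did not pass. So 5 of the 7 were called higher, where 2.63% of all tested genes were, and the groups did not overlap in 6 of the 7, where 13.2% of tested genes were higher without overlap. ENSRNOG00000025909 and ENSRNOG00000000459 passed the filter on low counts only through the EXO+LIPUS libraries. Of their LIPUS libraries, 1 and 0 reached its cutoff. So ENSRNOG00000000459 had to differ, and for ENSRNOG00000025909 the filter favoured a difference without forcing it. Neither the call of ENSRNOG00000000459 nor the lack of overlap of these 2 IDs is support. Of the remaining 5, 4 were called and 4 did not overlap.

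These calls depended on how the spread between replicates was estimated. The test draws each gene's spread towards a trend over genes, and for ENSRNOG00000029079 the gene's own value was 13.1, the trend 0.579 and the value used 4.98. With the robust form of this estimate, an alternative chosen after seeing the data, the value used was 12.4. Then 0 of the 5 IDs that also passed the filter in LIPUS were called. Of the 7, 1 was called, ENSRNOG00000000459, which had to differ (quasi-likelihood test of edgeR, Benjamini-Hochberg adjusted p = 0.00345, the lowest over its alternatives with the filter, where the highest was 0.0417). The adjusted p of the other 6 lay between 0.101 and 0.377, with the same fold changes. Over all genes, the robust form called 290 genes against 217, and it called 3.25% of tested genes higher. ENSRNOG00000065414 also lost its call without LIPUS replicate 2 (adjusted p = 0.0638), without LIPUS replicate 7 (0.0890) and with all 12 libraries in 1 fit (0.0840). ENSRNOG00000018951 gained a call without EXO+LIPUS replicate 2 (0.0240), and without EXO+LIPUS replicate 3 its log2 fold change was 0.52 in place of 1.75. That library also raised the values of 4 called IDs: without it the log2 fold change was 2.17 for ENSRNOG00000029079, 1.55 for ENSRNOG00000065414, 2.00 for ENSRNOG00000068374 and 2.04 for ENSRNOG00000008759. Of the 4 genes outside the 7 that met the rule, 3 were tested and 2 were called higher in the main fit, where 2.63% of all tested genes were.

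**Figure D2:**
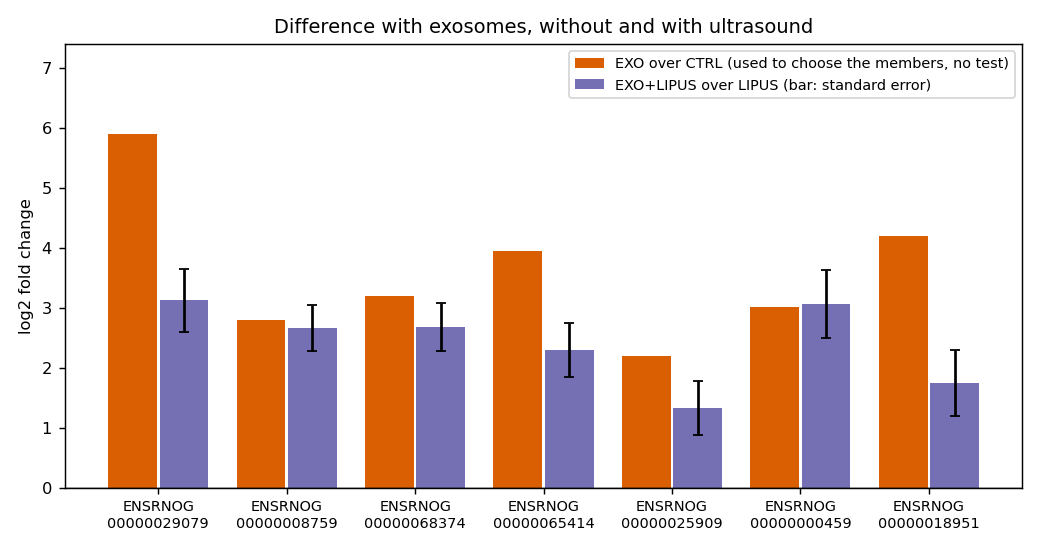
Log2 fold change of each ID for EXO over CTRL, which chose the IDs and has no test, and for EXO+LIPUS over LIPUS, with the standard error as a bar. The values for EXO+LIPUS over LIPUS run from 1.33 to 3.13.

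**Figure D3:**
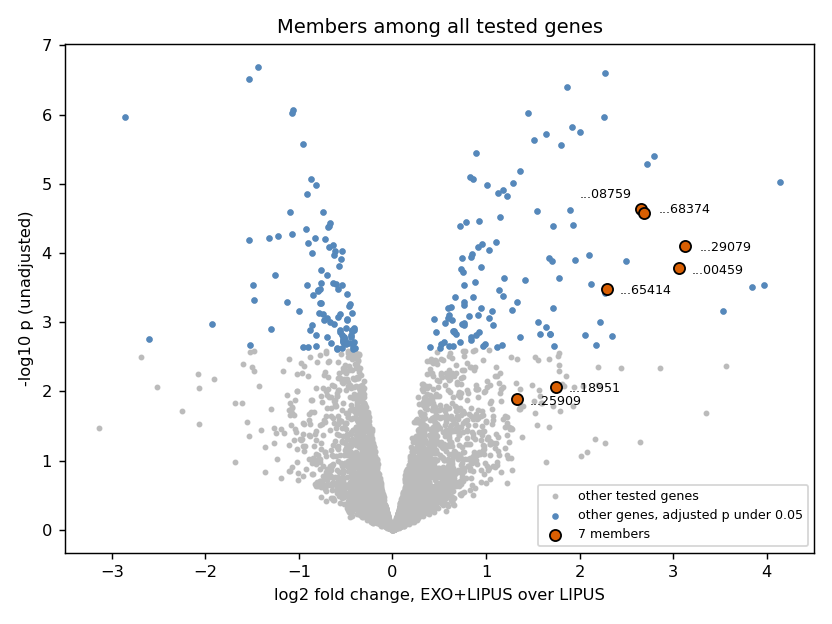
Each of the 4374 tested genes by its log2 fold change for EXO+LIPUS over LIPUS and the minus log10 of its unadjusted p, with the 7 IDs marked by their last 5 digits. The 5 called IDs have log2 fold changes from 2.30 to 3.13.

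Set side by side, the exosome difference was smaller with ultrasound than without for 6 of the 7 IDs, and the difference between these differences was not tested. The share of all genes with this order was not counted. The log2 fold changes without and with ultrasound were 5.91 and 3.13 for ENSRNOG00000029079, 4.19 and 1.75 for ENSRNOG00000018951, and 3.94 and 2.30 for ENSRNOG00000065414. They were 3.19 and 2.69 for ENSRNOG00000068374, and 2.19 and 1.33 for ENSRNOG00000025909. For ENSRNOG00000008759 they were 2.80 and 2.66, and for ENSRNOG00000000459, the exception, 3.02 and 3.06. With 1 library left out of either comparison, the order held for 5 IDs. It turned for ENSRNOG00000008759, as with EXO over CTRL at 2.35 without EXO replicate 2 or EXO+LIPUS over LIPUS at 3.04 without LIPUS replicate 2. It also turned for ENSRNOG00000000459, as with EXO over CTRL at 3.57 without CTRL replicate 1. The values without ultrasound were chosen for being large, and the ultrasound groups may have been sampled on another day.

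Between LIPUS and CTRL no test was made, since the rule used the CTRL values. For 5 IDs in the fit the log2 fold changes ran from 0.12 for ENSRNOG00000008759 to 1.32 for ENSRNOG00000029079, with a median of 0.54 against -0.01 over all genes. The median was 0.37 with all 7 IDs in the fit, as with all 12 libraries in 1 fit, and 0.32 without LIPUS replicate 7. The 0.32 is not over the same 5 IDs, since a further ID entered that fit. For ENSRNOG00000008759 the value was -0.28 without LIPUS replicate 2 and -0.02 without CTRL replicate 4, and for ENSRNOG00000068374 it was 0.03 without CTRL replicate 1 in place of 0.37. ENSRNOG00000025909 and ENSRNOG00000000459 did not pass the filter, and their ratios of means were 0.985 and 0.726. ENSRNOG00000029079 was the 1 ID whose LIPUS libraries all lay above its CTRL libraries, where 2.30% of genes did. Between EXO+LIPUS and EXO all 7 values were below 0, from -0.03 for ENSRNOG00000008759 to -1.91 for ENSRNOG00000018951, with a median of -0.87 against -0.01 over all genes. The median was -0.45 without EXO replicate 3, -0.57 without EXO+LIPUS replicate 2 and -1.18 without EXO+LIPUS replicate 3. The groups overlapped in each of the 7, so 0 were lower without overlap, where 6.10% of genes were. The sign was not stable for 3 of them: it turned for ENSRNOG00000008759 (0.42) and ENSRNOG00000068374 (0.32) without EXO replicate 2, also without EXO+LIPUS replicate 1 (0.24 and 0.09) or 2 (0.15 and 0.12). For ENSRNOG00000000459 it turned without EXO replicate 3 (0.13). The EXO values were chosen for being high.

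The strength per library was shared in part. EXO replicate 5 was the lowest EXO library in 7 of the 7 IDs, where it was the lowest in 33.6% of 4278 genes. Among the 295 genes with every EXO library above every CTRL library, it was the lowest in 39.0%. The EXO values chose the IDs, and the low values of this library were known when they were chosen. Of the 4 other genes that met the rule, 3 also had their lowest EXO value there. Its log2 level lay below the mean of the EXO group by a median of -0.77 over the IDs, from -0.45 to -2.36. The size of this shortfall differed between IDs. The level in EXO replicate 3 was 13.4 times that in replicate 5 for ENSRNOG00000018951, 7.68 times for ENSRNOG00000065414 and 6.42 times for ENSRNOG00000029079. It was 3.02 times for ENSRNOG00000000459, 1.36 times for ENSRNOG00000068374, 1.33 times for ENSRNOG00000025909 and 1.15 times for ENSRNOG00000008759. Measured from EXO replicate 2 the contrast was narrower. The first 3 IDs had 10.0, 5.09 and 4.91 times the level of replicate 5, and the last 4 had 1.65, 2.51, 1.90 and 2.28 times. EXO replicate 3 was the highest in 4 IDs, ENSRNOG00000029079, ENSRNOG00000065414, ENSRNOG00000000459 and ENSRNOG00000018951, and EXO replicate 2 in the other 3. EXO replicate 5 had the lowest total of the EXO group, 1259178 counts, against 1270941 in replicate 2 and 1351489 in replicate 3. The levels are in CPM, which is relative to the total, and the part of depth in its low values was not tested.

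With ultrasound, EXO+LIPUS replicate 3 was the highest of its group in 6 of the 7, where it was the highest in 35.4% of genes. In the exception, ENSRNOG00000000459, replicates 1 and 3 had 39 and 38 counts. The median log2 difference from the group mean was 1.00 in EXO+LIPUS replicate 3, against -0.57 in replicate 1 and -0.55 in replicate 2. Over all genes these medians were 0.00, 0.01 and 0.00. In CTRL and LIPUS no library was the highest or the lowest for more than 4 of the 7.

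**Figure D4:**
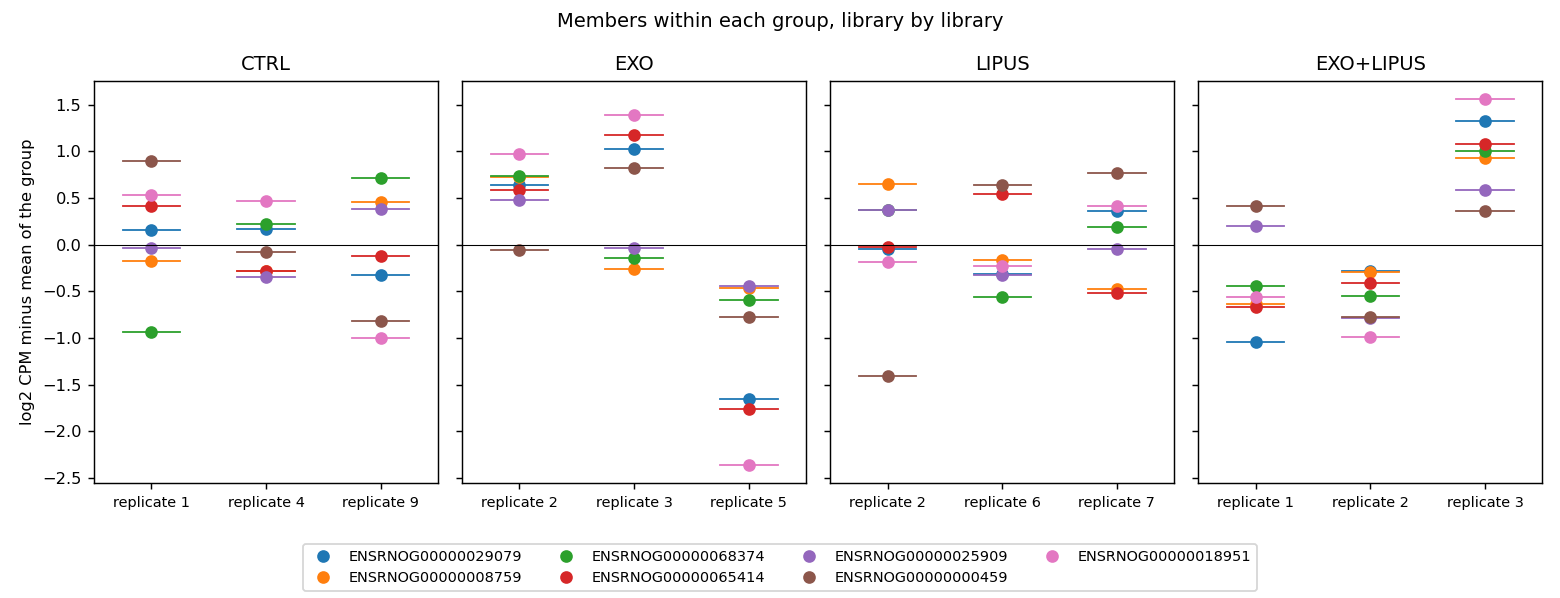
Difference of each ID's log2 CPM from the mean of its group, by library, in the 4 groups. EXO replicate 5 lies below 0 for all 7 IDs and EXO+LIPUS replicate 3 above 0 for all 7.

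How closely the IDs moved together was measured by the ratio of counts between 2 IDs within a library, which needs no scaling. Over the 6 libraries with exosomes, the SD of the log2 ratio was smallest of the 21 pairs for ENSRNOG00000008759 and ENSRNOG00000068374, at 0.18. Their ratio stayed between 2.95 and 4.13, while the SD of each ID's own log2 level over these libraries was 0.66 and 0.71. Next came ENSRNOG00000029079 and ENSRNOG00000065414, with an SD of 0.40 against 1.43 and 1.24 for each alone. The SD was largest, 1.49, for ENSRNOG00000008759 and ENSRNOG00000018951, whose ratio ran from 0.994 to 15.3. The median over pairs was 0.87. These pairs were picked out after their values were seen, and whether any of the IDs share reads or sequence is not known here.

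Among 4633 other genes, the 10 most like the 7 IDs had a Pearson r of 0.88 to 0.97 with their mean profile over the 12 libraries, which share groups, and each ID's own r was 0.91 to 0.98. The profile includes each ID, and the IDs were chosen for a shared rise, so their own r was partly fixed. The most alike of the other genes was ENSRNOG00000015644 (r = 0.97), with mean levels of 17.1, 36.9, 18.2 and 34.3 CPM in CTRL, EXO, LIPUS and EXO+LIPUS. These genes were picked for their likeness over the same libraries, so a higher level with exosomes was largely fixed by the choice and is not counted here. Their log2 fold changes for EXO+LIPUS over LIPUS ran from 0.29 to 1.04, below those of the 7 IDs. With group means removed, 1 of these 10 was among the 10 most alike.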

How the data were processed

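The authors deposited raw counts per Ensembl gene ID, whole numbers with 1 column per library. Per the submitters' processing notes, reads were trimmed with Trimmomatic 0.38 and aligned with HISAT2 2.0.5 to Rnor_6.0, with SAMtools and StringTie also named. The counting settings are not given in the sources used here. All 12 columns were matched to samples by name, and 0 columns were not mapped. Counts were filtered with filterByExpr (minimum count 10), scaled with TMM factors and tested with edgeR 4.0.16 (quasi-likelihood test, Benjamini-Hochberg adjustment, adjusted p under 0.05) in R 4.3.3, with only the compared groups in a fit. The scripts were tested on simulated data. Alternatives were DESeq2 1.42.0 (run on genes with any count, without filterByExpr), RLE and upper quartile factors, other filters, all 12 libraries in 1 fit, each replicate left out, and a replicate block. The robust spread estimate and the removal of the most abundant gene were chosen after seeing the data. The 7 IDs and the lists were chosen with earlier results of these data known. The rule for named genes took the 7 IDs, those nearest the 4 times threshold, the 10 most alike and the most abundant gene of each library. Since IDs have no names here, of the 10 most alike 1 is named, and genes outside the 7 near the threshold are given by their ratios. Nothing states that replicates came from separate rats, so p-values measure the spread between these samples, which may be technical. No 2 replicates agreed within sampling noise (chi-square per degree of freedom 5.31 to 124 over 12 pairs). The reference table holds 47357 genes, 0 with an Ensembl ID, so 0 of the 7 IDs were paired with a name, and marker lists and sequences were not used here.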

Additional observations from a re-analysis of the deposited data

Results flagged for a closer look

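For 3 IDs, every EXO+LIPUS library lay below the EXO mean while every LIPUS library lay above the CTRL mean. The share of all genes with this layout was not counted, so whether 3 is many is not known. The EXO+LIPUS and EXO libraries overlapped in all 3. The log2 fold changes for EXO+LIPUS over EXO and for LIPUS over CTRL were -1.47 and 1.32 for ENSRNOG00000029079, -1.05 and 0.60 for ENSRNOG00000065414, and -1.91 and 0.54 for ENSRNOG00000018951. With 1 library left out, these values moved. ENSRNOG00000029079 reached -2.41 without EXO+LIPUS replicate 3 and -0.99 without EXO replicate 3. ENSRNOG00000065414 reached -1.79 and -0.45 without the same libraries, and 0.27 without LIPUS replicate 6. ENSRNOG00000018951 reached -3.13 without EXO+LIPUS replicate 3 and 0.20 without CTRL replicate 9. For ENSRNOG00000065414 the lowest LIPUS library, at 12.5 CPM, was level with the CTRL mean of 12.5 CPM within counting error. The difference between the 2 directions was not tested, and the rule chose IDs high in EXO and low in CTRL.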

How the results depend on the processing

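The log2 fold changes of the 7 IDs kept their direction under each alternative run for EXO+LIPUS over LIPUS and EXO over CTRL. The sign turned in 2 of 60 values for LIPUS over CTRL (1 ID) and in 7 of 91 for EXO+LIPUS over EXO (3 IDs), each with a replicate left out. The 60 values cover the 5 IDs in the main fit, and the other 2 were not counted there. In EXO+LIPUS over LIPUS, 5 of the 7 were called, and 4 to 6 under the 13 other alternatives besides the robust spread estimate, which called 1 and was chosen after seeing the data. Those 13 called 1.09 to 3.43% of all genes higher. Genes called were 217, against 416 with no filter on low counts, 104 with all 12 libraries in 1 fit and 88 to 176 with 1 replicate left out. Genes called higher were 115, against 233, 63 and 56 to 102. Fewest were called without LIPUS replicate 7. The p-values with no filter do not measure the spread between replicates: there the estimate drew every gene fully to the trend, so that for ENSRNOG00000018951 the spread used was 0.672 while its own was 13.7. Its call under that setting (adjusted p = 8.37e-16, quasi-likelihood test of edgeR, Benjamini-Hochberg; up to 0.377 over its alternatives), the 6 IDs called there and the 416 genes are therefore given no weight. Leaving that setting out, ENSRNOG00000029079, ENSRNOG00000008759 and ENSRNOG00000068374 were called in 12 of 13 alternatives, ENSRNOG00000065414 in 9 of 13, and ENSRNOG00000018951 in 1 of 13. ENSRNOG00000025909 was called in 0 of 12 and ENSRNOG00000000459 in 12 of 12. In the filtered fits of EXO+LIPUS and LIPUS they entered only through EXO+LIPUS, and with all 12 libraries in 1 fit also through EXO. For those fits the counts are no support. The 12 also include DESeq2, which was run without that filter and gave them adjusted p of 0.204 and 0.000661. Of the 10 most alike genes, 5 were kept with Spearman in place of Pearson and 1 with group means removed; the cause was not tested. EXO and EXO+LIPUS share the numbers 2 and 3. Deviations from group means had r of -0.12 and -0.01 over genes for equal numbers, so the numbers are not shown to pair these 2 groups. EXO+LIPUS and LIPUS share only the number 2, so a paired fit of these 2 groups alone could not be tested. A fit of all 12 libraries with the replicate block was not run for this comparison, and its pairing was not checked. With the replicate block the median for EXO+LIPUS over EXO was -1.18 in place of -0.87. At this depth, IDs under about 10 CPM rest on few counts.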
